A study of Mus musculus with 2 samples.

Results

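The non-classical (class Ib) MHC class I genes H2-T22, H2-T23, H2-Q4, H2-Q6, H2-Q7, H2-M2 and H2-M3 were followed across the immune cells of mouse gliomas. These 7 genes were taken by symbol from the 31253 genes of the deposited feature table, and all 7 were detected in both libraries. The cells were living host leukocytes, sorted from dissociated gliomas as CD45.2-positive and CD45.1-negative, and they were sequenced on the BD Rhapsody microwell platform. There were 2 libraries, 1 from tumours treated with EM, which its title places at 72 h, and 1 from tumours treated with PBS (phosphate-buffered saline), for which no time is given. The abbreviation EM is not spelled out, the number, strain, sex and age of the animals behind each library are not given, and the series title concerns adoptively transferred macrophages.

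With 1 library a group no test was possible. Every interval is a 95% interval for counting error only, and any difference between EM and PBS is also a difference between 2 libraries. The EM library held 7967 cells (median 2016 UMIs) after filtering and the PBS library 7756 cells (median 4303 UMIs). Ptprc, the gene of the CD45 antigen used in the sort, had a UMI in 85.1% of EM cells and 89.2% of PBS cells. The libraries also differed in sex-linked RNA: Xist stood at 384 and Ddx3y at 4.46 CPM (UMIs scaled to a total of 1000000) in EM, against 10.6 and 192 CPM in PBS, and the part of this difference in the results was not tested. Between the libraries 66 cell barcodes were shared.

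Class Ib molecules share the fold of the classical class I molecules H2-K and H2-D, mostly pair with beta-2 microglobulin, and vary less between individuals. H2-T23 encodes Qa-1, which presents leader peptides of other class I molecules to the CD94-NKG2 receptors of NK cells and CD8 T cells. H2-T22 is a ligand of a subset of gamma delta T cells. H2-Q6 and H2-Q7 encode Qa-2 molecules, H2-Q4 encodes a further Q-region molecule, and H2-M3 presents N-formylated peptides to CD8 T cells. Class I promoters typically carry a kappa B element, an interferon-stimulated response element bound by IRF factors, and an SXY module through which NLRC5 acts.

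All 7 genes lie in the MHC on mouse chromosome 17 and are annotated as protein-coding by GENCODE (GRCm38, the assembly of the mm10 build named for the files). H2-T22 (ENSMUSG00000056116) spans chr17:36037128-36042747 and H2-T23 (ENSMUSG00000067212) chr17:36029773-36032855, both on the minus strand. H2-Q4 (ENSMUSG00000035929) spans chr17:35379617-35385290, H2-Q6 (ENSMUSG00000073409) chr17:35424850-35430055 and H2-Q7 (ENSMUSG00000060550) chr17:35439155-35443773, all on the plus strand. H2-M3 (ENSMUSG00000016206) spans chr17:37270220-37274484 on the plus strand and H2-M2 (ENSMUSG00000016283) chr17:37480851-37483552 on the minus strand.

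The promoters of 5 members are shown, picked by their EM over PBS ratios. H2-T22, H2-T23 and H2-Q7 were higher in EM in most classes, H2-Q6 is the close relative of H2-Q7 that mostly was not, and H2-M2 was lower. Whether promoter sequence has a part in these ratios was not tested. Each is the RefSeq (GRCm38.p6) window of 250 bases before to 50 bases after the annotated start, 5′ to 3′ on the gene's strand. Capitals mark matches to AANNGAAA on either strand, a pattern of the interferon-stimulated element.
H2-T22 promoter, chr17:36042693-36042992, minus strand: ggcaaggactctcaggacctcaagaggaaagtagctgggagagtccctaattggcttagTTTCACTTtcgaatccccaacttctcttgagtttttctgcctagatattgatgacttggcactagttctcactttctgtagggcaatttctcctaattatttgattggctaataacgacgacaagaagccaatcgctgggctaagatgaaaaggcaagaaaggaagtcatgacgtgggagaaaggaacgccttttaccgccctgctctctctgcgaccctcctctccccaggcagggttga
H2-T23 promoter, chr17:36032652-36032951, minus strand: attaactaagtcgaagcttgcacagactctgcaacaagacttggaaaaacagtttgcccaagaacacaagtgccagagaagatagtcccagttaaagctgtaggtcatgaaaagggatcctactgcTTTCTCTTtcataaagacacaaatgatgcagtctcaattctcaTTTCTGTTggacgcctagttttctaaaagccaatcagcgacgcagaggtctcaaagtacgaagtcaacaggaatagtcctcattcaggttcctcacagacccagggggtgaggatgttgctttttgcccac
H2-Q6 promoter, chr17:35424600-35424899, plus strand: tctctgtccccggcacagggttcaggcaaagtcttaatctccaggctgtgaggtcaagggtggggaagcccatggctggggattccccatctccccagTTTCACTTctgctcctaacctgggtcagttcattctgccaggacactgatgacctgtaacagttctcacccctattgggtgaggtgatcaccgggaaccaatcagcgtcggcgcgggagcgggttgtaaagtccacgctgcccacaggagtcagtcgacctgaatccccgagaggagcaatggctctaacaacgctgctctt
H2-Q7 promoter, chr17:35438905-35439204, plus strand: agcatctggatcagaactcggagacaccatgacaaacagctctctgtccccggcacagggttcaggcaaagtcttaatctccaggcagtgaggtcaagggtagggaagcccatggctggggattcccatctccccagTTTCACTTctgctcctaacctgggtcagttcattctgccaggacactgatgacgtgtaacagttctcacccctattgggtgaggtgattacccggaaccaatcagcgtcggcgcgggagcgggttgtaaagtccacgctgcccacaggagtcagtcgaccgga
H2-M2 promoter, chr17:37483505-37483804, minus strand: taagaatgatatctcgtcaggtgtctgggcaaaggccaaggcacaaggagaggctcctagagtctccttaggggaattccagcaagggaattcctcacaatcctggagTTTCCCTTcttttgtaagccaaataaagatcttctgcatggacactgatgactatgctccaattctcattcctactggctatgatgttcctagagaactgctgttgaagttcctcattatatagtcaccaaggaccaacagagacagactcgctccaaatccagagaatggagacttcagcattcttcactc

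The IRF-type pattern AANNGAAA was found in all 7 member windows, and 24.2% of 27025 RefSeq promoter windows of the same length hold it. The kappa B pattern GGGGATT was found in the H2-T22, H2-Q4, H2-Q6 and H2-Q7 windows, against 3.12% of all windows. TGATGAC, a form of the X2 box of the SXY module, was found in the windows of 6 members but not of H2-T23, against 3.36% of all windows, and CCAAT in all 7, against 37.9%. Both strands were searched, no match overlapped another, and the patterns were chosen after the member windows had been viewed. The H2-T22, H2-Q4, H2-Q6 and H2-Q7 windows held all 4 patterns.

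Over all cells, H2-Q7 stood at 1119 CPM in EM and 517 CPM in PBS. H2-T23 stood at 476 CPM in EM and 257 CPM in PBS, and H2-T22 at 289 CPM in EM and 142 CPM in PBS. H2-M3 was nearly level, with 79.8 CPM in EM and 80.8 CPM in PBS. H2-M2 went the other way, with 10.9 CPM (211 UMIs) in EM and 162 CPM (7032 UMIs) in PBS. These sums mix cell types whose shares differed between the libraries, so the genes were next compared within classes set by marker genes.

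A cell was given to a class when at least 3 of that class's markers had a UMI, and 10 classes reached 50 cells in both libraries. CD8 T cells were the largest (2599 EM and 3143 PBS cells), and the monocyte/macrophage class had 665 EM and 1592 PBS cells. Plasmacytoid dendritic cells (pDC, 161 EM cells) had no PBS cells, and neutrophils (547 PBS cells) no EM cells. EM macrophages were shallow, with a median of 1004 UMIs a cell against 9139 in PBS, and EM microglia likewise, with 898 against 8249.5. The 8 T cell markers summed in monocyte/macrophage cells to 1.73% of what they reach in T cells in EM, and to 0.781% in PBS, with no marker at 0.

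**Figure D1:**
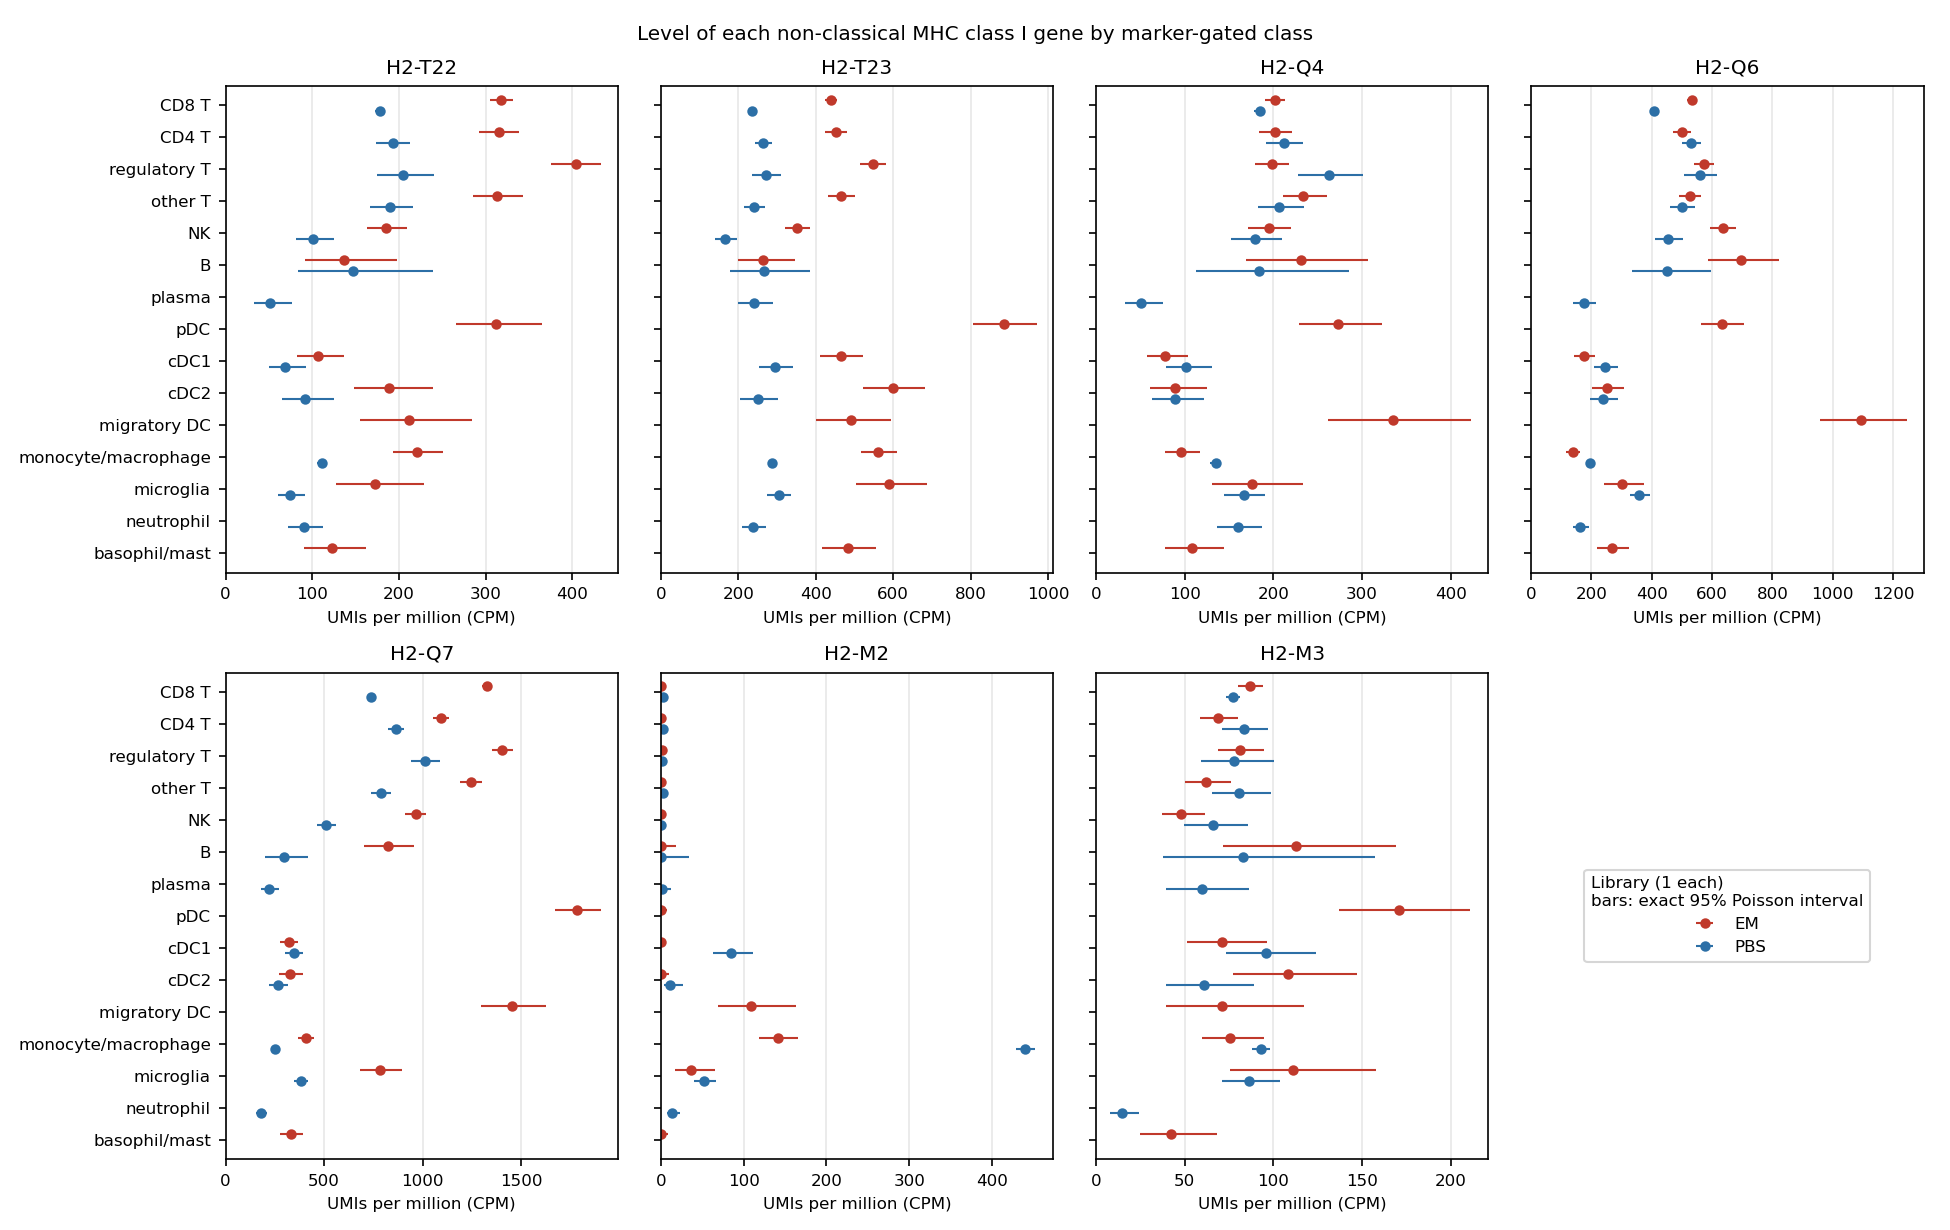
Level of each gene (x axis, CPM of the class) in each marker-gated class (y axis), EM in red above PBS in blue, with exact 95% Poisson intervals and 1 library a group. EM points lie right of PBS points for H2-T22 and H2-T23 in 9 of 10 shared classes. Most H2-M2 UMIs were in monocyte/macrophage cells, which had 141 CPM in EM and 439.8 CPM in PBS.

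H2-T22 was at least 1.5-fold higher in EM in 9 of the 10 classes, with B cells the exception. H2-T23 was too, again in all but B cells, and H2-Q7 in 6. H2-Q6 passed that fold in B cells only, H2-M3 in cDC2 only, and H2-Q4 in no class. Under the alternative gates, filters, scalings and thinnings, H2-T22 stayed past the fold in 67 of 73 values of its 9 classes, H2-T23 in 74 of 75 and H2-Q7 in 49 of 52 values of its 6. H2-T22 came under it in CD4 T cells at 0.30 (classes from clusters), cDC2 at 0.27 and cDC1 at 0.46 (thinned to 1000 UMIs), cDC1 at 0.58 (4 markers), and NK cells at 0.42 and other T cells at 0.49 (thinned to 500 UMIs). H2-T23 did so in cDC2 at 0.52 (thinned to 500 UMIs), and H2-Q7 in other T cells at 0.51 (thinned to 1000 UMIs) and in monocyte/macrophage cells at 0.53 (classes from clusters) and 0.43 (stricter cell filter). H2-Q6 in B cells came under it at 0.58 (classes from clusters) and 0.37 (thinned to 1000 UMIs). Over the 64 member-by-class pairs with at least 20 UMIs, 26 were at least 1.5-fold higher in EM, against 13.8% of all 82614 gene-by-class pairs, and 3 were at least 1.5-fold lower, against 25.1%. All 3 lower pairs were H2-M2.

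By class, 3 of 7 members were higher past the fold in CD8 T cells, against 9.42% of all genes tested in that class, and 3 of 7 in monocyte/macrophage cells, against 15.3%. It was 3 of 7 in microglia (17.1% of all genes), 3 of 6 in NK cells (13.1%), 3 of 6 in other T cells (11.3%) and 3 of 6 in cDC2 (20.3%). In the remaining classes 2 members were higher: 2 of 6 in CD4 T cells (10.9%), 2 of 6 in regulatory T cells (14.4%), 2 of 6 in B cells (20.5%) and 2 of 7 in cDC1 (15.1%). H2-M2 was the 1 member of 7 lower in CD8 T cells (24.8% of all genes), in cDC1 (26.1%) and in monocyte/macrophage cells (35.7%), shares of members that lie below the background. Among genes with at least 200 UMIs, 15.7% were lower in CD8 T cells, 14.1% in cDC1 and 31.1% in monocyte/macrophage cells. The 1 of 7 is near that share in CD8 T cells and cDC1, where H2-M2 itself had fewer UMIs.

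H2-T22 had 318 CPM in EM CD8 T cells, against 178 CPM in PBS CD8 T cells, a log2 ratio of 0.84 (0.76 to 0.92). In regulatory T cells it had 404 CPM in EM, above every other EM class, and 205 CPM in PBS, where the interval overlapped that of CD4 T cells and the order of classes was not resolved. NK cells had 185 CPM in EM and 101 CPM in PBS. The ratio was of similar size in cells of the myeloid lineage: H2-T22 had 221 CPM in EM and 111 CPM in PBS monocyte/macrophage cells (log2 0.99, 0.79 to 1.19). Microglia had the largest log2 ratio, 1.21 (0.68 to 1.73), from 48 UMIs in EM and 93 in PBS. Conventional type 1 dendritic cells (cDC1) had the smallest past the fold, 0.63 (0.05 to 1.23). In B cells the counts were 28 UMIs in EM and 16 in PBS, and the interval of the log2 ratio, -1.04 to 0.88, is wide. The median over the 10 classes was 0.85.

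H2-T23, the Qa-1 gene, had 438 CPM in EM and 235 CPM in PBS CD8 T cells (log2 0.90, 0.83 to 0.97). In NK cells, which carry receptors for Qa-1, it had 352 CPM in EM and 166 CPM in PBS (log2 1.09, 0.81 to 1.37). Monocyte/macrophage cells had 561 CPM in EM and 286 CPM in PBS (log2 0.97, 0.85 to 1.10). The largest ratio was in type 2 dendritic cells (cDC2), with 598 CPM in EM and 250.3 CPM in PBS (log2 1.26, 0.92 to 1.60). Of these cells 61.4% in EM and 67.9% in PBS held only the 3 markers needed. In clusters made without H2 genes, 37 of the 88 EM cells lay in cluster 16, high in Ly6c2 and Ccr2. Cluster 15 held 46 EM cDC2 cells and 47 of the 53 in PBS. Over all cells of cluster 15 the log2 ratio was 0.83 (0.62 to 1.05). The part of this make-up in the cDC2 ratio was not tested. B cells had 265 CPM in EM and 267 CPM in PBS. EM pDC had the highest H2-T23 level of any EM class, 886 CPM (806 to 971), with a UMI in 89.4% of 161 cells. Their interval did not overlap that of the next class, cDC2. Most of the order was not resolved in either library: 10 neighbouring pairs overlapped among the 13 EM classes, and 9 of 10 among the PBS classes.

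H2-Q7 had 1325 CPM in EM and 738 CPM in PBS CD8 T cells (log2 0.84, 0.81 to 0.88). NK cells had 964 CPM in EM and 509.6 CPM in PBS (log2 0.92, 0.76 to 1.08), and microglia 784 CPM in EM and 380.3 CPM in PBS (log2 1.04, 0.81 to 1.28). Monocyte/macrophage cells had 408 CPM in EM and 250.1 CPM in PBS (log2 0.71, 0.56 to 0.85). B cells had the largest ratio, 824 CPM in EM and 295 CPM in PBS (log2 1.48, 0.93 to 2.08), on 168 EM and 32 PBS UMIs. CD4 T cells (log2 0.34) and regulatory T cells (log2 0.47) were higher in EM but under the fold, and cDC1 had 321 CPM in EM and 346 CPM in PBS. As for H2-T23, EM pDC were the highest class, with 1783 CPM (1669 to 1903).

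The EM over PBS ratios of H2-Q6 and H2-Q4 were mostly smaller than those of H2-Q7, while their levels across the 24 class-by-library sums went with it (Pearson r = 0.83 for H2-Q6 and 0.77 for H2-Q4, as a description). H2-Q6 had 533 CPM in EM and 408 CPM in PBS CD8 T cells (log2 0.39, 0.33 to 0.44), but 139 CPM in EM and 196 CPM in PBS monocyte/macrophage cells (log2 -0.50, -0.75 to -0.25). H2-Q4 had 202 CPM in EM and 185 CPM in PBS CD8 T cells, and 96.0 CPM in EM and 135 CPM in PBS monocyte/macrophage cells (log2 -0.49, -0.80 to -0.20). Their medians over the 10 classes were 0.05 and 0.04. In EM, migratory dendritic cells were the highest class for both, with 1095 CPM of H2-Q6 and 335 CPM of H2-Q4, and their H2-Q6 interval, 959 to 1245, overlapped no other class.

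**Figure D2:**
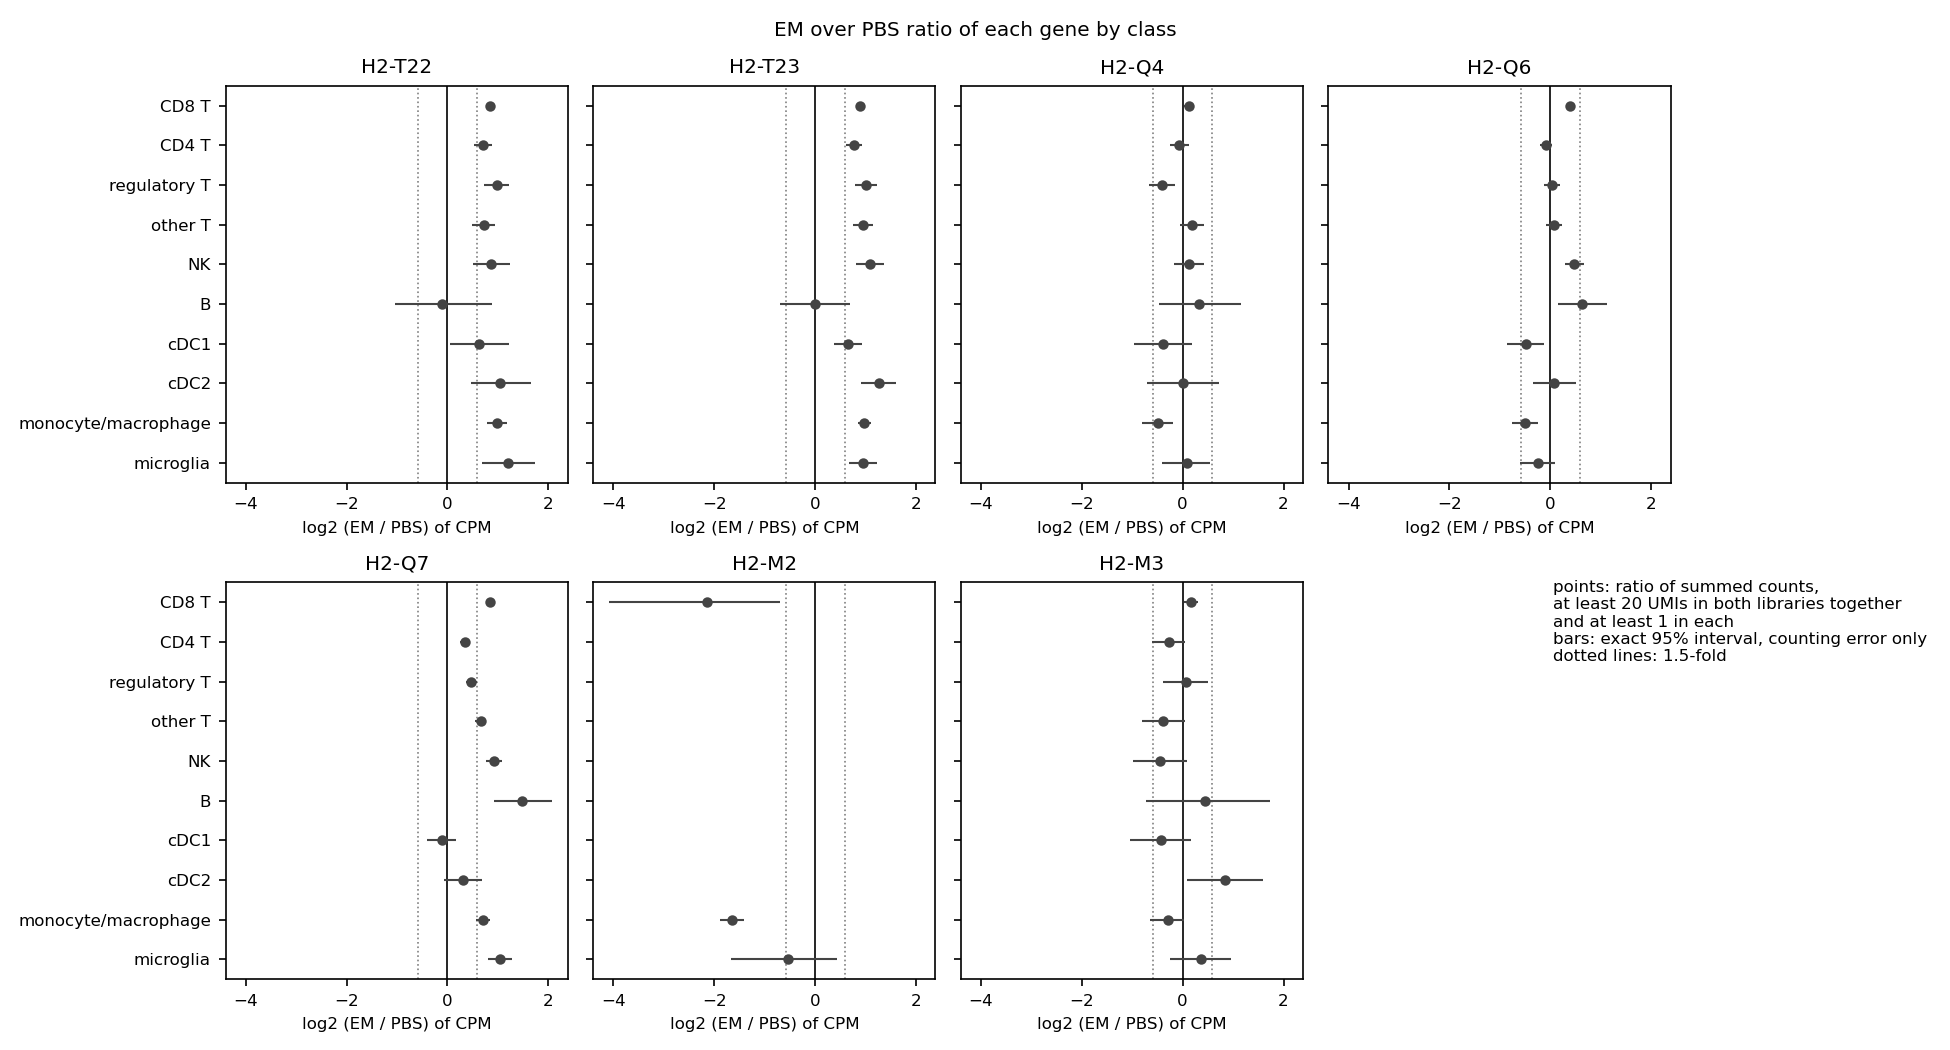
Log2 ratio of EM over PBS (x axis) of each gene in the 10 classes that reached 50 cells in both libraries (y axis), with exact 95% intervals for counting error and dotted lines at 1.5-fold. H2-T22 and H2-T23 lie right of the upper line in 9 of 10 classes each, H2-Q4 lies between the lines in all 10, and H2-M2 lies left of 0 in the 3 classes where a ratio could be drawn.

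Because H2-Q6 and H2-Q7 encode similar proteins, their counts were also read against each other within a class, which cancels the scaling. H2-Q7 held 74.6% (70.8 to 78.1%) of the summed H2-Q6 and H2-Q7 UMIs in EM monocyte/macrophage cells, against 56.0% (54.9 to 57.2%) in PBS. In microglia the share was 72.2% in EM and 51.4% in PBS. In CD8 T cells it was 71.3% in EM and 64.4% in PBS, and in NK cells 60.3% in EM and 52.8% in PBS. The share was higher in EM in all 10 classes, and the EM and PBS intervals overlapped in B cells, cDC1 and cDC2. Of the 50-base stretches in the last 500 bases of H2-Q6 transcripts 42.9% also occur in other genes, most often H2-Q7. Of those of H2-Q7 11.8% do, nearly all in H2-Q5, which is not in the feature table. How reads of these genes were assigned can therefore move this share. Monocyte/macrophage cells and microglia also lay in partly different clusters in the 2 libraries. Over all cells of cluster 11, a macrophage cluster of both, H2-Q7 had 272 and H2-Q6 102 UMIs in EM, against 171 and 91 in PBS. There the EM and PBS shares lie closer together than in the whole class. The part of cluster make-up in the share was not tested.

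**Figure D3:**
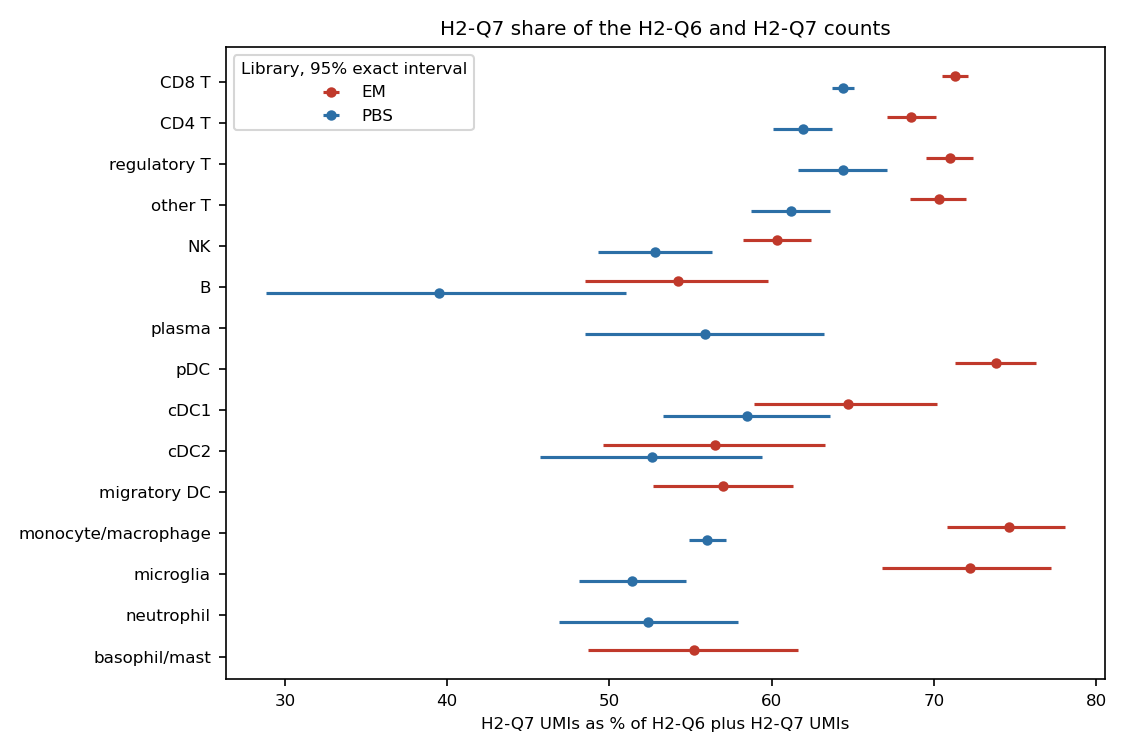
H2-Q7 UMIs as a percentage of H2-Q6 plus H2-Q7 UMIs (x axis) by class (y axis), EM in red above PBS in blue, with exact 95% binomial intervals and 1 library a group. The EM point lies right of the PBS point in every class with both, by most in microglia (72.2% in EM and 51.4% in PBS) and monocyte/macrophage cells (74.6% in EM and 56.0% in PBS).

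H2-M3 had 86.9 CPM in EM and 77.2 CPM in PBS CD8 T cells, and 75.8 CPM in EM and 93.0 CPM in PBS monocyte/macrophage cells. Its log2 ratio was positive in 5 classes and negative in 5, with a median of -0.11. The value past the fold, in cDC2, was 0.83 (0.08 to 1.60) on 40 EM and 26 PBS UMIs, and it was -0.15 with each cell thinned to 1000 UMIs, 0.27 thinned to 500 UMIs and 0.51 with equal weight per cell. In EM, pDC again had the highest level, 171 CPM (137 to 211), an interval that overlaps that of B cells. PBS neutrophils had 14.5 CPM (7.95 to 24.4), the lowest H2-M3 level of any class and below every other PBS class.

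By count of UMIs, H2-M2 was mainly a macrophage signal. Monocyte/macrophage cells held 69.7% of its UMIs in EM and 94.1% in PBS. It had 141 CPM (119 to 166) in EM and 439.8 CPM (429 to 451) in PBS monocyte/macrophage cells, a log2 ratio of -1.64 (-1.89 to -1.40) on 147 EM and 6616 PBS UMIs. Microglia had 36.0 CPM in EM and 52.0 CPM in PBS, and EM migratory dendritic cells 109 CPM. NK and B cells of both libraries, and EM pDC and basophils/mast cells, had 0 UMIs. A count of 0 allows up to 3 UMIs, which is 2.22 CPM in EM and 3.53 CPM in PBS NK cells, but 14.7 CPM in EM and 27.6 CPM in PBS B cells.

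A UMI of H2-M2 was seen in 10.5% of EM and 40.7% of PBS monocyte/macrophage cells, and in 0.154% of EM and 1.08% of PBS CD8 T cells (median 2239 UMIs a cell in EM and 4651 in PBS). None of 526 EM and 240 PBS NK cells had one (median 2166 UMIs in EM and 2716 in PBS). With every macrophage thinned to 1000 UMIs, which left out 332 EM and 75 PBS cells, the shares were 8.41% (5.66 to 11.9%) in EM and 18.6% (16.7 to 20.6%) in PBS. The 4 EM and 45 PBS UMIs in CD8 T cells, at 0.588 and 2.61 CPM, gave the second value past the fold (log2 -2.15). They are 0.417% (EM) and 0.593% (PBS) of the macrophage level. T cell markers reach 1.73% (EM) and 0.781% (PBS) in macrophages, which is the other direction and no measure of macrophage RNA in T cells. The CD8 T cell value is not read as expression in these cells, and its source was not tested. The third was cDC1, with 0 EM and 53 PBS UMIs, at least 16.7-fold lower in EM against a limit of 3 UMIs. Those 53 UMIs came from 6 of 61 PBS cells, and the 45 of these 61 cells in cluster 15, which holds most cDC1 and cDC2 cells of both libraries, had 1 of them.

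The size of the H2-M2 difference moved with how macrophages were weighed. Unsupervised clusters, made without H2 genes, split the PBS monocyte/macrophage class into cluster 4 (985 cells, 529 CPM of H2-M2, high in Arg1 and Mrc1), cluster 12 (321 cells, 12.1 CPM, high in the monocyte genes Ly6c2 and Ccr2) and smaller groups. Cluster 4 held no EM cell. Of the EM class, 23.2% lay in cluster 16 (154 cells, 19.5 CPM, high in Ly6c2 and Ccr2), against 1.70% of the PBS class. A further 20.2% of the EM class lay in cluster 14 (134 cells, 46.6 CPM), the cluster of most EM microglia. In cluster 11, the main one in EM, H2-M2 had 357 CPM (299 to 424) in 363 EM macrophages, against 473 CPM (407 to 547) in 156 PBS macrophages. Over all cells of cluster 11 the log2 ratio was -0.46 (-0.77 to -0.16). With equal weight for each cell the class ratio was -0.75, and with each cell thinned to 500 UMIs -0.74. The part of cluster make-up and depth in the class value was not tested, for H2-M2 or for the other members.

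**Figure D4:**
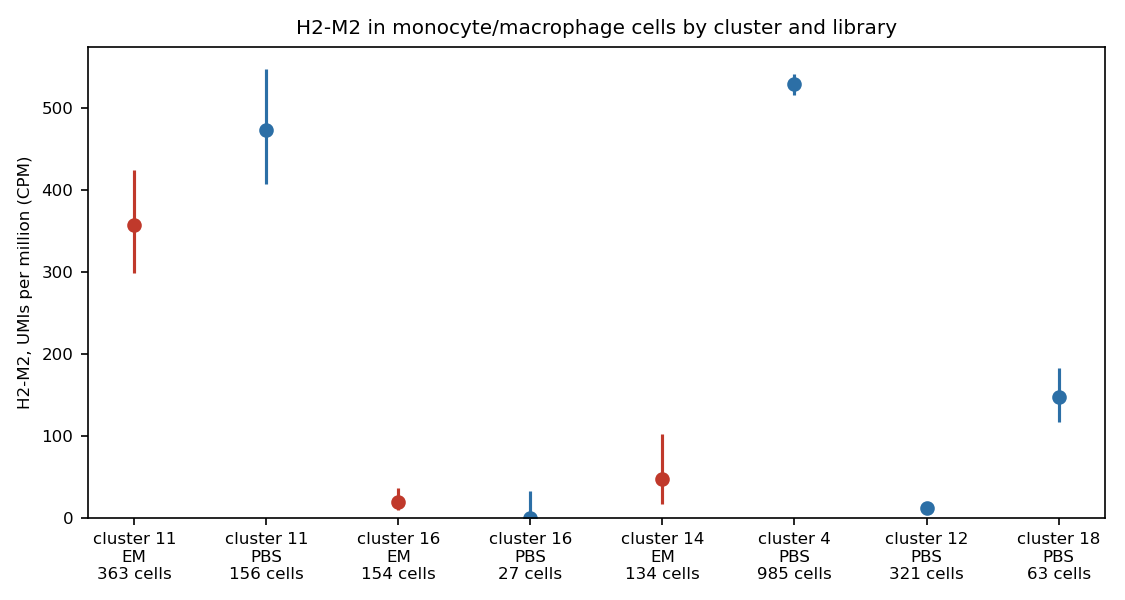
H2-M2 level (y axis, CPM) in monocyte/macrophage cells by cluster and library (x axis), EM in red left of PBS in blue where a cluster holds both, with exact 95% Poisson intervals. Cluster 4, of PBS cells alone, stood at 529 CPM, and cluster 11 at 357 CPM in EM and 473 CPM in PBS.

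H2-T22, H2-T23 and H2-Q7 kept their direction within nearly all of the clusters that could be compared. Over the 12 clusters that reached 50 cells in both libraries, the log2 ratio of H2-T22 was above 0 in 12 (0.16 to 1.18) and that of H2-T23 in 12 (0.33 to 1.01). H2-Q7 was above 0 in 11, and H2-Q6 in 10 (6 with an interval above 0), with no H2-Q6 value past the fold. The main microglial clusters were not among those compared. Cluster 14, with 206 of 220 EM microglia, held 16 PBS cells, and cluster 18, with 113 of 128 PBS microglia, held 7 EM cells. Within cluster 11 H2-T22 had 229.8 CPM in EM and 110.4 CPM in PBS (log2 1.06), and H2-Q7 595 CPM in EM and 309 CPM in PBS (log2 0.94). In the same cluster H2-Q6 had 223 CPM in EM and 165 CPM in PBS (log2 0.44, 0.02 to 0.86), the opposite direction to the monocyte/macrophage class as a whole.

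For H2-T22, H2-T23 and H2-Q7 unthinned shares of positive cells went against the level in the monocyte/macrophage class, whose cells were shallower in EM. For the other 4 members unthinned share and level were both lower in EM, though the H2-M3 ratio interval included 0 (log2 -0.29, -0.64 to 0.03). H2-T22 had a UMI in 26.0% of EM and 54.5% of PBS monocyte/macrophage cells, while its CPM was higher in EM. With each cell thinned to 1000 UMIs the shares were 20.7% in EM and 10.8% in PBS. Those of H2-M3 were then 9.31% in EM and 8.31% in PBS, with overlapping intervals, while those of H2-Q4, H2-Q6 and H2-M2 stayed lower in EM. In CD8 T cells thinning gave 28.4% in EM and 16.3% in PBS for H2-T22, 36.0% in EM and 21.8% in PBS for H2-T23, and 72.1% in EM and 52.5% in PBS for H2-Q7. Thinning left out 39 EM and 21 PBS CD8 T cells.

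Across 24 class-by-library sums, the genes whose level followed each member most closely were found by Pearson correlation of log2(CPM + 1) among 10456 genes. These points share 2 libraries and their depths, and the values are a description. H2-T23 was closest to Bst2 (r = 0.930), Rnf5 (0.885) and Usp18 (0.877). Bst2 encodes tetherin, which holds budding virus at the membrane, and Usp18 removes ISG15 from proteins. H2-M2 was closest to the adhesion molecule gene Vcam1 (0.914), the complement gene Cfb (0.899) and the potassium channel gene Kcnj10 (0.876). H2-Q7 was closest to the classical gene H2-K1 (0.864) and Ddx24 (0.864), H2-Q4 to H2-Q6 (0.868), H2-Q6 to Foxp4 (0.875), H2-T22 to Ddx24 (0.808) and H2-M3 to Lman1 (0.854).

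The classical genes passed the fold in fewer classes than H2-T22 and H2-T23. H2-K1 was at least 1.5-fold higher in EM in 5 of 10 classes, close to the 6 of H2-Q7. B2m, the shared light chain, was so in 3 and H2-D1 in 1. Of all gene-by-class pairs 13.8% passed the fold, and the count of H2-D1 is near that share. Below the fold, however, H2-D1 and B2m were mostly higher in EM. Each had an interval above 0 in 9 of 10 classes and below 0 in 1, with median log2 ratios of 0.41 and 0.52. H2-K1 had an interval above 0 in 8 and below 0 in 1, with a median of 0.61. H2-K1 was just under the fold in CD4 T cells (1.47-fold) and regulatory T cells (1.49-fold). In NK cells its log2 ratio was 0.90, against 0.87 for H2-T22, and in B cells 0.86, against -0.10. In monocyte/macrophage cells H2-K1 had 4318 CPM in EM and 3196 CPM in PBS (log2 0.43, 0.39 to 0.48), a smaller ratio than the 0.99 of H2-T22, and the intervals do not overlap. In CD8 T cells H2-K1 had a log2 ratio of 0.76 (0.75 to 0.78), which lies inside the interval of H2-T22.

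Among 10 genes of class I transcription, 6 were at least 1.5-fold higher in EM in CD8 T cells, against 9.42% of all genes tested there. Their median log2 ratio was 0.78, against -0.17 for all genes. Irf7, a factor that amplifies the interferon response, had 102 CPM in EM and 14.3 CPM in PBS (log2 2.83). Nlrc5, the class I transactivator, differed little, with 254 CPM in EM and 219.5 CPM in PBS (log2 0.21). In monocyte/macrophage cells 6 of 10 were higher, against 15.3% of all genes, and 2 were lower, against 35.7%. There Irf7 had 406 CPM in EM and 43.3 CPM in PBS, and Nlrc5 152 CPM in EM and 88.6 CPM in PBS (log2 0.77). The list was mixed in microglia and B cells. In microglia, the class with the largest H2-T22 ratio, 4 of 8 genes with enough UMIs were higher (17.1% of all genes) and 3 lower (39.8%). Their median there was 0.04, with Nlrc5 at -0.60. In B cells 2 of 7 were higher (20.5%) and 2 lower (28.5%), with a median of -0.20. In every other class compared the median was above 0, from 0.49 in regulatory T cells to 0.87 in cDC1.

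Of 8 peptide loading genes only Tapbp, the gene of tapasin, passed the fold in CD8 T cells, with 509 CPM in EM and 286 CPM in PBS (log2 0.83), and in monocyte/macrophage cells (log2 0.89). These counts of 1 in 8 are near the 9.42% and 15.3% of all genes, whereas 6 of 8 passed it in microglia (median 0.80, against 17.1% of all genes) and 4 of 8 in cDC2 (20.3%). Tap1, a subunit of the peptide transporter, had 275 CPM in EM and 305 CPM in PBS CD8 T cells. None of the 5 immunoproteasome genes passed the fold in CD8 T cells, where their median log2 ratio was 0.48, and 2 did in monocyte/macrophage cells, against 9.42% and 15.3% of all genes. In B cells 5 of 5 did (20.5%).

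A list of 10 genes held receptors and co-receptors of class I and class I-like molecules, not of class Ib molecules alone. Of these, 2 were higher past the fold in CD8 T cells, Klrk1 (log2 0.86) and Cd8b1 (log2 0.75), against 9.42% of all genes. A further 3 were lower, which is near the 24.8% of all genes. Cd8b1 was also a marker that set CD8 T cells apart from other T cells, so its value there is tied to the gate. Klrc1 (NKG2A, the inhibitory partner for Qa-1) had 382 CPM in EM and 442 CPM in PBS, a log2 ratio of -0.21. Klrc2 (NKG2C, the activating partner) had 39.0 CPM in EM and 76.7 CPM in PBS (log2 -0.98), and Klrd1 (CD94), which pairs with both, had 718 CPM in EM and 587 CPM in PBS (log2 0.29). In NK cells Klrc1 had 298 CPM in EM and 318 CPM in PBS.

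Of 19 further class Ib and class I-like genes listed, 12 are in the feature table, and H2-T3, H2-M1, H2-M9, H2-M10.1 and H2-M11 had 0 UMIs. H2-T24 had 7.21 CPM in EM and 1.05 CPM in PBS CD8 T cells (log2 2.79, 1.98 to 3.65), on 49 EM and 18 PBS UMIs. Cd1d1, which presents lipids to NKT cells, had 7.68 CPM in EM and 70.1 CPM in PBS monocyte/macrophage cells (log2 -3.19), on 8 EM and 1055 PBS UMIs. H2-T10, a near copy of H2-T22, is not in the feature table under its symbol or identifier. Of the 50-base stretches at the H2-T22 transcript ends 58.9% also occur in it, so H2-T22 counts may include H2-T10 reads. For H2-T23 38.1% and for H2-Q4 33.7% of such stretches also occur in other genes, so how reads were assigned can move their counts too. A930015D03Rik overlaps H2-T22 and H2-T23 on the opposite strand, with 35.8 CPM in EM and 21.1 CPM in PBS over all cells, and whether the counting used strand is not given in the sources used here.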

How the data were processed

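Single-cell RNA libraries of EM and PBS tumours, 1 each, were analysed from the deposited raw UMI counts per gene and barcode. Per the submitters' processing notes, CASAVA 1.8, STARsolo and mm10 were used, with the annotation, cell calling and treatment of multi-mapping reads not given in the sources used here. The deposited counts totalled 19385631 UMIs in 8039 EM barcodes and 45043934 in 8333 PBS barcodes. Cells with at least 500 UMIs, 200 genes and at most 20% mitochondrial UMIs were kept.

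Cells were given to the class with the highest fraction of its markers detected (at least 3), and cells that also held 0.75 of that fraction in another lineage were left out (225 EM, 139 PBS). This rule was set after seeing the data, and 12.4% of gated EM and 5.33% of gated PBS cells sat at the 3-marker limit. Scrublet (scanpy 1.11.5) called 3 EM and 0 PBS cells and so did not work: doublets remain. UMIs were summed per class and library and scaled to CPM. Ratios carry exact conditional binomial intervals, levels exact Poisson and shares exact Clopper-Pearson intervals, all at 95% and for counting error only. Where no UMI was seen, 3 UMIs was taken as the upper limit. A member counted as higher or lower past a fold of 1.5, with at least 20 UMIs in the class. Levels are given for classes with at least 20 cells, and the order of classes for those with at least 50. Clusters were made with leidenalg 0.10.2 at resolution 1.0 without the H2 genes. The ratio step was tested on simulated counts. The named genes are all members, the listed pathway genes and, for each member, the 3 genes with the highest correlation, of which some are printed, and 1 listed gene is not reported here. Members, lists and comparisons were chosen with earlier results of these data known.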

Additional observations from a re-analysis of the deposited data

How the results depend on the processing

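Of 526 member-by-class log2 ratios under 9 alternatives, 444 stayed within the interval of the main value and the rest moved outside it. In all 49 changed sign: 17 of H2-Q4, 12 of H2-Q6, 10 of H2-M3, 4 of H2-T22 and 3 of H2-T23 (all in B cells) and 3 of H2-Q7 (cDC1 and cDC2). The change of a value past the fold was that of H2-M3 in cDC2, at -0.15 when thinned to 1000 UMIs. H2-T22 in CD8 T cells (0.84) was 0.98 thinned to 1000 UMIs, 1.02 thinned to 500 UMIs and 0.98 with median-of-ratios scaling. H2-Q7 in CD8 T cells (0.84) was 0.89 thinned to 500 UMIs, 0.99 with median-of-ratios scaling and 0.90 with equal weight per cell. H2-M2 in monocyte/macrophage cells (-1.64) was -1.98 with classes from clusters, -2.28 with a filter of 1000 UMIs and 10% mitochondrial UMIs, -1.05 thinned to 1000 UMIs, -0.74 thinned to 500 UMIs and -0.75 with equal weight per cell. The 26 higher pairs became 7 at a fold of 2. The 3 lower pairs became 5 with classes from clusters, 5 with the stricter filter, 6 thinned to 1000 UMIs, 1 thinned to 500 UMIs and 7 with equal weight per cell. The causes were not tested. Median-of-ratios scaling shifted CPM ratios by -0.20 to 0.03 (log2) between classes, so every ratio stands about that much higher under it where the shift is negative. Of 156 list medians under alternatives, 143 moved little and 13 more. Thinning to 500 UMIs, T cell RNA subtraction and the comparison within clusters were chosen after seeing the data. Leaving out a replicate was not possible with 1 library a group. No paired analysis was possible because each group has 1 library. Counting error was wide in B cells, where the H2-T22 interval runs from -1.04 to 0.88.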

Other observations

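Cluster 23 (4 EM and 121 PBS cells) was given no class, and its PBS cells had 61.0 CPM of H2-Q7, 40.4 CPM of H2-Q6 and 357 CPM of H2-K1. PBS neutrophils had 560.2 CPM of H2-Q10, a class Ib gene that is not among the 7 members, against 9.76 CPM in PBS CD8 T cells.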
